A study of Homo sapiens with 6 samples.

Results

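10 genes that mark the epithelial or the mesenchymal state of a cell were followed after knockdown of DAB2IP in MCF10A cells: the intermediate filament gene VIM, the cadherin genes CDH1, CDH2 and CDH3, the transcription factor genes SNAI1, SNAI2, TWIST1, ZEB1 and ZEB2, and the fibronectin gene FN1. They were chosen by name, as markers and regulators of epithelial-mesenchymal transition (EMT), from the 58735 genes of the deposited count table, and each of the 10 names matched a single gene. MCF10A is an established line of nonmalignant human breast epithelial cells, here grown in medium with horse serum, insulin, epidermal growth factor, cholera toxin and hydrocortisone. The siDAB2IP group (genotype label DAB2IP knockdown) received siRNA against DAB2IP, and the siControl group (genotype label WT) received a nontargeting control pool. RNA was taken 48 hours after transfection in both groups, with 3 libraries per group. The knockdown rests on a single siRNA reagent in a single line, and the cells were measured in bulk, where fewer cells of a type and less RNA per cell cannot be told apart. The labels do not say whether the libraries came from separate cultures, so the p-values measure the spread between these libraries.

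In EMT, epithelial cells loosen their junctions and take on mesenchymal features. CDH1 encodes E-cadherin, which holds epithelial cells together, and its loss with a gain of CDH2, N-cadherin, is the classical cadherin switch. The zinc finger factors encoded by SNAI1, SNAI2, ZEB1 and ZEB2 bind E-box sequences and repress CDH1, and TWIST1 is a basic helix-loop-helix factor that acts in the same program. VIM encodes vimentin, the main type III intermediate filament of mesenchymal cells, and FN1 encodes fibronectin, a matrix glycoprotein bound by integrins. Cultured basal-like breast epithelial cells such as MCF10A are known to express VIM, FN1 and CDH3 (P-cadherin) alongside CDH1.

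Of the 10 genes, 2 fell with knockdown of DAB2IP: VIM by 49.4% and TWIST1 by 40.1%. None of the 10 rose in the fit without pairing. SNAI1 was lower in each siDAB2IP library but did not pass the test, and CDH1, CDH2, CDH3, SNAI2, ZEB1 and ZEB2 did not pass it either. FN1 was higher in siDAB2IP than in siControl within each replicate number, and whether it passed the test depended on the fit. It did not pass in the main fit, without the number as a block. It passed in 3 of 16 alternatives, among them the fit with the number as a block.

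The promoter sequences of the gene with the largest called fall, VIM, and of the gene whose call differed most between fits, FN1, are shown first. They are RefSeq promoter windows on GRCh38.p14, which were found for 5 of the 10 genes, and only bases before the first base annotated for the gene are printed. The VIM window covers chr10:17227991-17228240 on the plus strand, the 250 bases before a RefSeq start of VIM. It ends 1038 bases before the start of the transcript VIM-201. The FN1 window covers chr2:215436173-215436318 on the minus strand and ends 105 bases before the start of FN1-201.
VIM: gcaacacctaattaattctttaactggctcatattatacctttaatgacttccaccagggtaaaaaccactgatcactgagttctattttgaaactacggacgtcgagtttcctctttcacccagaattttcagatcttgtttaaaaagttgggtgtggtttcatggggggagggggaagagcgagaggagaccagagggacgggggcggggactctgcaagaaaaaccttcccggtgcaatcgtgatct
FN1: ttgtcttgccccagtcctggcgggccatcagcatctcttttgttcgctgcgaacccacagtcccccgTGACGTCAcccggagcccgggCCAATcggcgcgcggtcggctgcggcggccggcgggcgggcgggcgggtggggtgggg
The capitals in FN1 mark a cyclic AMP response element, TGACGTCA, and a CCAAT box. 4 motifs were searched on both strands, and they were chosen after the sequences had been read: TGACGTCA, CCAAT, the E-box CAGGTG and the AP-1 motif TGANTCA. The VIM window held none of these letters, and the matches in FN1 did not overlap each other. Among all 35116 promoter windows of RefSeq, which run from 250 bases before to 50 bases after a start, TGACGTCA was found in 1.85%, CCAAT in 34.6%, CAGGTG in 20.6% and TGANTCA in 7.71%. A match describes the sequence and does not show binding.

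Each library held 16353783 to 21916062 counts on genes, and 3 counts, the limit that a count of 0 allows, corresponded to 0.137 to 0.183 CPM (counts scaled to a common library total, here with edgeR's TMM factors), for counting error only. The targeted gene was measured at 103, 94.3 and 77.4 CPM in siControl and at 27.5, 25.6 and 22.4 CPM in siDAB2IP, a fall of 1.86 on the log2 scale (SE 0.132, edgeR quasi-likelihood test with Benjamini-Hochberg adjustment, adjusted p = 9.71e-05). Of 9 mammary epithelial markers, 8 passed the filter on low counts, 0 rose and 4 fell, namely the basal keratins KRT5, KRT14, KRT6A and KRT17 (0 rose at an unadjusted p under 0.05), while KRT8 and KRT18, with log2 differences of 0.09 and 0.02, did not pass the test. The summed level of this list was 7400 to 9294 CPM in siControl and 3903 to 4690 CPM in siDAB2IP. KRT19 lay near the limit, at a mean of 0.133 and 0.169 CPM. Of 8 fibroblast markers 3 passed the filter, 1 higher and 2 lower in siDAB2IP, with a median log2 difference of −0.49. The list summed to 163 to 293 CPM in siControl and 146 to 206 CPM in siDAB2IP, most of it DCN. COL1A1 rose from 15.3 to 26.3 CPM (edgeR adjusted p = 0.0129), and the 2 lower genes did not pass the test. With the replicate number as a block, 1 of the 3 rose and 1 fell. COL1A2, COL3A1, PDGFRA and THY1 gave at most 4 counts and LUM at most 7 counts in any library. Of 5 endothelial markers 5 passed the filter and KDR fell (edgeR adjusted p = 0.0471), with list sums of 23.7 to 34.0 and 15.8 to 17.3 CPM, and of 5 leukocyte markers only CD14 passed it, with list sums of 35.9 to 70.0 and 49.8 to 77.3 CPM and CD3E at 0. The part of these markers in the results below was not tested.

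VIM (ENSG00000026025, chr10:17228259-17237593, plus strand, GRCh38) was measured at 132, 133 and 136 CPM in the siControl libraries 1, 2 and 3. It was measured at 71.2, 69.1 and 63.1 CPM in siDAB2IP. The libraries of each group lay close together and the groups did not overlap. The mean was 134 ± 2.26 CPM in siControl and 67.8 ± 4.18 CPM in siDAB2IP (SD, n = 3), so that VIM fell with a log2 fold change of −0.98 (SE 0.0918, 95% interval −1.19 to −0.78). VIM held rank 34 by p among the 15430 genes tested (edgeR adjusted p = 3.59e-04). The log2 differences within the replicate numbers were −0.89, −0.95 and −1.11. A divergent antisense RNA gene, VIM-AS1, shares 641 exon bases with VIM and gave 18 to 30 counts per library against at least 1089 for VIM, and its log2 difference of −0.44 did not pass the test (adjusted p = 0.394). Which strand the counting used is not given in the sources used here, so reads of overlapping genes on opposite strands may have been shared.

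**Figure D1:**
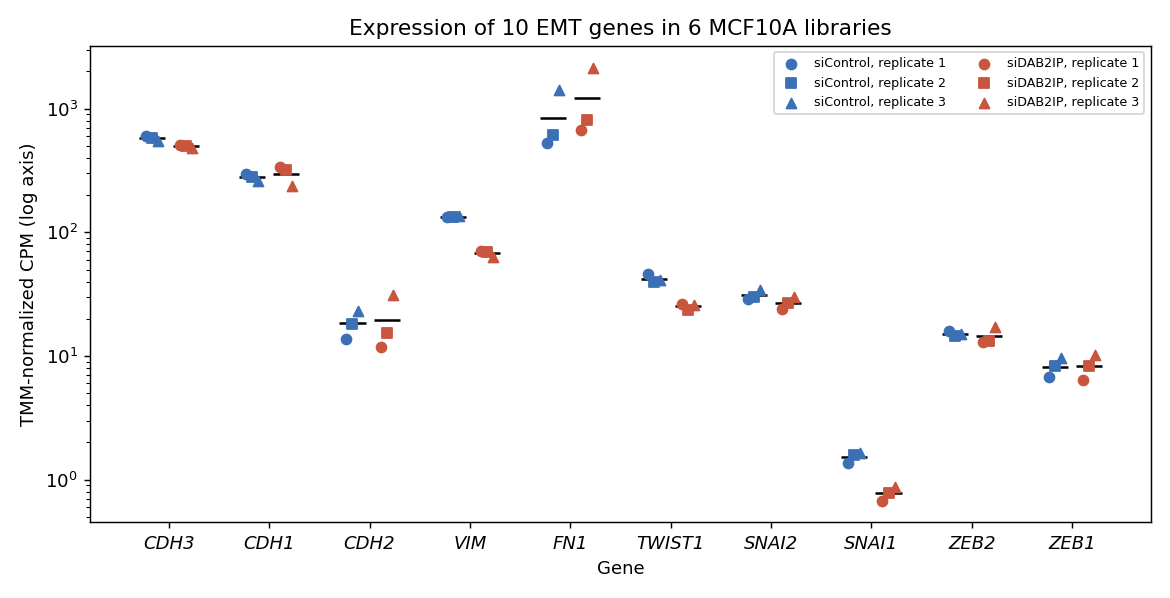
CPM of each of the 10 genes in each library (vertical log axis, TMM-scaled), with siControl and siDAB2IP side by side, each library a point and each group mean a line. VIM and TWIST1 show 2 separate groups, SNAI1 and CDH3 also do not overlap, and in FN1 and CDH2 replicate 3 is the highest library of its group.

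Among all 15430 genes tested, 1011 rose (6.55%) and 1181 fell (7.65%), beside 0 and 2 of the 10 EMT genes. At an unadjusted p under 0.05, 0 of the 10 were higher and 3 lower, and DESeq2 likewise had 0 that rose. For 4 of the 10 (VIM, TWIST1, SNAI1 and CDH3) the 3 siDAB2IP libraries lay entirely outside the range of the siControl libraries, as did those of 35.9% of all genes tested. The median log2 fold change was −0.13 over the 10 genes and 0.009 over all genes tested.

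The cadherins did not show a called change in either direction. CDH1 (ENSG00000039068, chr16:68737225-68835548, plus strand) was measured at 295, 282 and 258 CPM in siControl and at 339, 317 and 236 CPM in siDAB2IP. The siDAB2IP libraries 1 and 2 lay above all siControl libraries and library 3 below them all. The means were 278.5 ± 18.7 and 297 ± 54.4 CPM (SD, n = 3), with a log2 difference of 0.09 (SE 0.1396, 95% interval −0.22 to 0.41, edgeR adjusted p = 0.701), and the difference was −0.01 without siDAB2IP replicate 1.

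CDH2 (ENSG00000170558, chr18:27950966-28177446, minus strand) was measured at 13.8, 18.2 and 23.2 CPM in siControl and at 11.9, 15.4 and 31.0 CPM in siDAB2IP. In both groups replicate 3 was the highest, and the groups overlapped. Within replicate numbers, CDH2 was different by −0.22 and −0.24 on the log2 scale in pairs 1 and 2 and by 0.42 in pair 3. The log2 difference over all libraries was 0.08 (SE 0.319, 95% interval −0.64 to 0.79, edgeR adjusted p = 0.907). The sign of this difference turned without siDAB2IP replicate 3 (−0.43, adjusted p = 0.172), without siControl replicate 1 (−0.11, adjusted p = 0.888) and without replicate 3 in either group (−0.24, adjusted p = 0.417).

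CDH3 (ENSG00000062038, chr16:68636189-68722616, plus strand), which lies 14608 bases before CDH1, was measured at 604, 584 and 546 CPM in siControl and at 506, 498 and 485 CPM in siDAB2IP. Every siDAB2IP library was below every siControl library. The means were 578 ± 29.9 and 496 ± 10.7 CPM (SD, n = 3), and the log2 difference of −0.22 (SE 0.102, 95% interval −0.45 to 0.01) did not pass the test (edgeR adjusted p = 0.1798). The difference was −0.26, −0.23 and −0.17 within the replicate numbers.

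The balance between cadherins was then compared within each library, after division by gene length, counted over all annotated exons. CDH2 had 0.0585, 0.0804 and 0.112 times the level of CDH1 in siControl and 0.0436, 0.0607 and 0.164 times in siDAB2IP. The log2 ratio differed by −0.09 between the groups (exact permutation test, two-sided, p = 1), and its sign turned without siControl replicate 3 (0.14), siDAB2IP replicate 1 (0.30) or siDAB2IP replicate 2 (0.07). CDH2 was higher and CDH1 lower in siDAB2IP in replicate 3, and the opposite held in replicates 1 and 2. CDH3 had 2.03, 2.06 and 2.09 times the level of CDH1 in siControl and 1.48, 1.56 and 2.04 times in siDAB2IP, a log2 difference of −0.30 (exact permutation test, p = 0.20). VIM had 0.535, 0.567 and 0.632 times the level of CDH1 in siControl and 0.251, 0.262 and 0.321 times in siDAB2IP. These groups did not overlap, and the log2 difference of −1.06 had p = 0.10 in the exact permutation test, the smallest p that 3 libraries against 3 allow. Taken as pairs, the log2 VIM:CDH1 ratio was lower in each of the 3 pairs (exact sign-flip permutation test, p = 0.25, the smallest that 3 pairs allow).

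**Figure D2:**
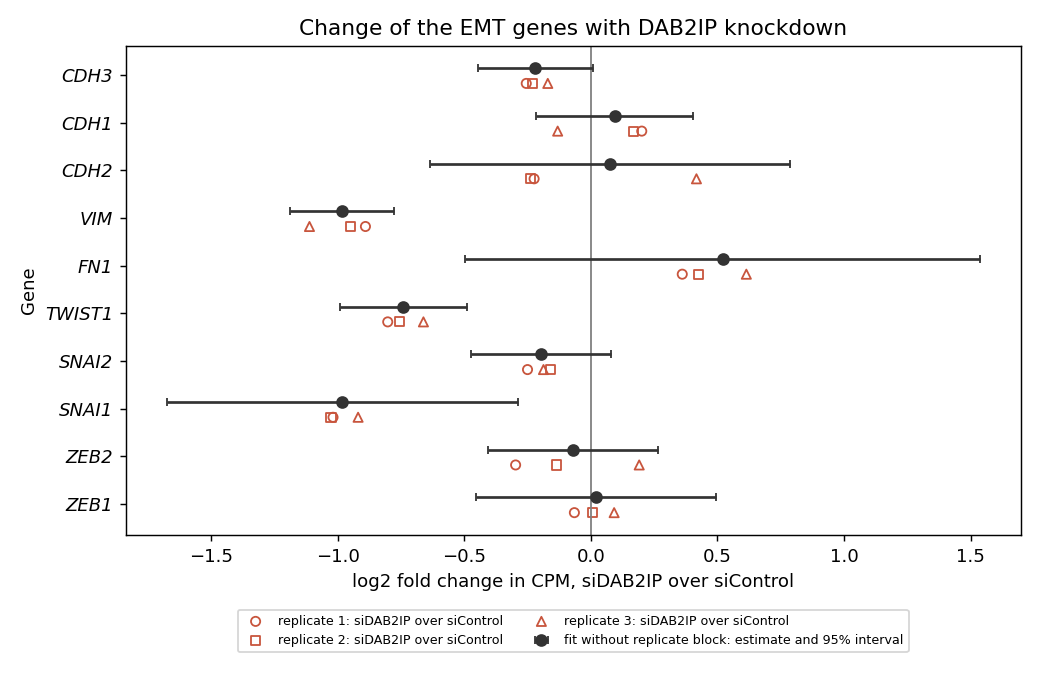
Log2 fold change in CPM, siDAB2IP over siControl (horizontal axis), for each of the 10 genes, with the estimate and 95% interval of the fit without replicate block in black and the difference within each replicate number as open symbols. The intervals of VIM, TWIST1 and SNAI1 lie below 0, and FN1 has the widest interval, −0.50 to 1.54, with the 3 differences within numbers between 0.36 and 0.61.

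Of the 5 transcription factor genes, TWIST1 fell. TWIST1 (ENSG00000122691, chr7:19020991-19117672, minus strand) was measured at 46.2, 39.5 and 41.2 CPM in siControl. In siDAB2IP it was measured at 26.5, 23.4 and 26.03 CPM. The lowest siControl library was well above the highest siDAB2IP library. The mean was 42.3 ± 3.52 CPM in siControl and 25.3 ± 1.69 CPM in siDAB2IP (SD, n = 3), and the log2 fold change was −0.74 (SE 0.113, 95% interval −0.99 to −0.49, edgeR adjusted p = 0.00372). AC003986.2, on the opposite strand, shares 141 exon bases with TWIST1 and gave 11 to 40 counts per library, against at least 422 for TWIST1. TWIST2, the close relative of TWIST1, was measured at 16.1 and 16.0 CPM (log2 difference −0.01, adjusted p = 0.973).

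SNAI1 (ENSG00000124216, chr20:49982999-49988886, plus strand), which encodes Snail, was detected at low counts: 22, 34 and 28 counts in siControl and 12, 14 and 15 in siDAB2IP. These correspond to 1.37, 1.58 and 1.64 CPM and to 0.677, 0.775 and 0.870 CPM. Every siDAB2IP library was below every siControl library, and the 3 differences within replicate numbers lay between −1.03 and −0.92 on the log2 scale. The log2 difference was −0.98, close to that of VIM, but with an SE of 0.312 and a 95% interval of −1.68 to −0.29, and it did not pass the test over all genes (edgeR adjusted p = 0.0630). Of 14 alternatives it passed in 1, where genes with fewer than 10 counts in any library were left out (edgeR adjusted p = 0.0392), and with DESeq2 the adjusted p was 0.161.

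SNAI2 (ENSG00000019549, chr8:48917604-48921740, minus strand), which encodes Slug and is known for its expression in basal breast epithelium, was measured at 28.8, 30.04 and 33.9 CPM in siControl and at 24.2, 26.9 and 29.8 CPM in siDAB2IP. The groups overlapped, and the log2 difference was −0.20 (SE 0.124, 95% interval −0.47 to 0.08, edgeR adjusted p = 0.323). Per length, SNAI2 had the highest level of the 4 zinc finger factors that repress CDH1, as given below. ZEB1 (ENSG00000148516, chr10:31318495-31529814, plus strand) was measured at 6.73, 8.26 and 9.63 CPM in siControl and at 6.43, 8.31 and 10.3 CPM in siDAB2IP. The spread among libraries of a group exceeded the log2 difference of 0.02 (SE 0.212, 95% interval −0.45 to 0.49, edgeR adjusted p = 0.963). That difference was −0.12 without siControl replicate 1 and −0.16 without siDAB2IP replicate 3. ZEB1-AS1, a divergent gene that shares 366 exon bases with ZEB1, gave 48 to 100 counts beside 108 to 178 for ZEB1, a larger share than the antisense partners of VIM and TWIST1 had. ZEB2 (ENSG00000169554, chr2:144364364-144524583, minus strand) was measured at 16.1, 14.4 and 15.1 CPM in siControl and at 13.1, 13.1 and 17.2 CPM in siDAB2IP. The groups overlapped, with a log2 difference of −0.07 (SE 0.152, 95% interval −0.41 to 0.27, edgeR adjusted p = 0.804).

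FN1 (ENSG00000115414, chr2:215360440-215436172, minus strand) varied more between replicate numbers than between groups. It was measured at 523, 608 and 1405 CPM in siControl. In siDAB2IP it was measured at 672, 816 and 2150 CPM. Replicate 3 was 2.48 times the mean of replicates 1 and 2 in siControl and 2.89 times in siDAB2IP. Of the 9431 genes tested with a mean of at least 10 CPM, 2 had ratios at least as large as FN1 in both groups (0.0212%), FN1 itself and POSTN, which encodes the matrix protein periostin and is named here after its values were seen. POSTN was measured at 6.36, 9.80 and 30.1 CPM in siControl and at 7.45, 7.98 and 50.1 CPM in siDAB2IP. CDH2 had smaller ratios of the same kind, 1.45 and 2.27.

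Within replicate numbers, FN1 in siDAB2IP was 1.28, 1.34 and 1.53 times its level in siControl. In the fit without pairing, the log2 difference of 0.52 (SE 0.457, 95% interval −0.50 to 1.54) did not pass the test (edgeR adjusted p = 0.494). The libraries with the same number deviated together from their group means across genes, with correlations of 0.265, 0.155 and 0.255. These correlations come from the same libraries, and the labels do not say what the number stands for, so the pairing is assumed. On that assumption a second fit treated each number as a pair, while calls not said to use the block came from the fit without pairing. With the number as a replicate block, FN1 rose, with a log2 fold change of 0.47 (SE 0.103, edgeR adjusted p = 0.0146). With the block, 1 of the 10 genes rose and 2 fell, beside 9.59% and 11.4% of all genes tested. FN1 also passed the test without replicate 3 in either group (0.39, edgeR adjusted p = 0.0340). With no filter on low counts it passed as well (0.51, SE 0.131, edgeR adjusted p = 0.00202). The filter leaves the counts of FN1 unchanged, so this pass is no further evidence of a rise. The sign of the FN1 difference turned without siDAB2IP replicate 3 (−0.18, edgeR adjusted p = 0.744). The difference was 1.09 without siControl replicate 3 (edgeR adjusted p = 0.171). The calls of VIM and TWIST1 held with the block, at −0.98 and −0.74. FN1 has 27 annotated transcripts, and counts per gene do not separate its isoforms.

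**Figure D3:**
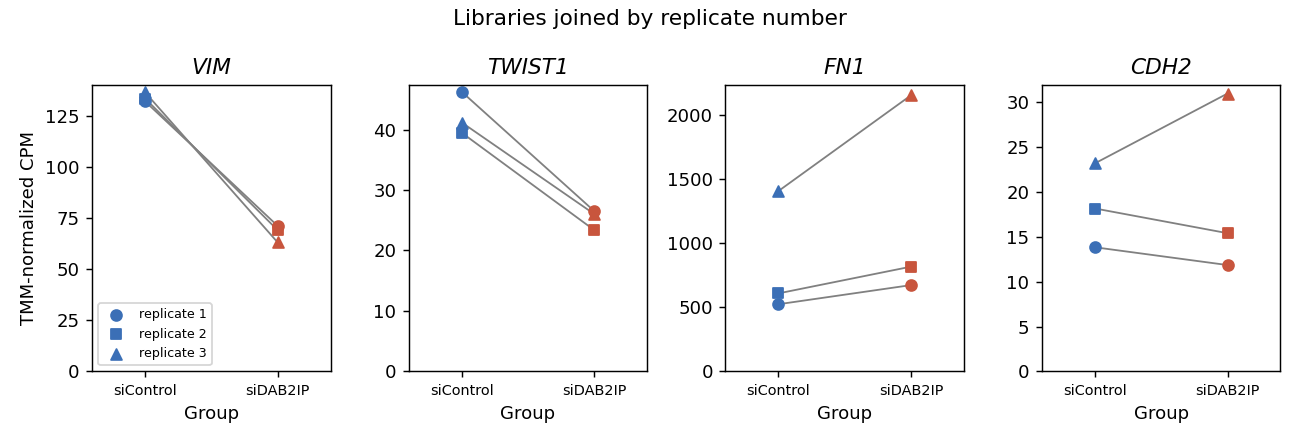
CPM (vertical axis from 0, a scale per gene) in the siControl and siDAB2IP library of the same replicate number, joined by a line, for VIM, TWIST1, FN1 and CDH2. The 3 lines of FN1 go up, those of VIM and TWIST1 go down, and those of CDH2 go down in replicates 1 and 2 and up in replicate 3.

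Levels of different genes were compared on the deposited FPKM scale, which divides by gene length. That length is counted over all annotated exons of a gene, 25058 bases for ZEB2 with 48 transcripts and 1686 bases for SNAI1 with 1. It can exceed the length of a single transcript, which lowers the FPKM, so the order and percentiles depend on it. In siControl, ZEB2 had a mean of 15.2 CPM and SNAI1 of 1.53 CPM. In siControl the order was CDH3 (91.9 ± 4.78 FPKM, SD, n = 3), FN1 (48.4 ± 27.8), CDH1 (44.7 ± 3.004), VIM (25.7 ± 0.431), TWIST1 (20.6 ± 1.68), SNAI2 (9.03 ± 0.780), CDH2 (3.68 ± 0.937), ZEB1 (0.940 ± 0.166), SNAI1 (0.900 ± 0.0847) and ZEB2 (0.601 ± 0.0313). The libraries of neighbours overlapped for FN1 with CDH1 and for ZEB1 with SNAI1, and for no other neighbours in this order. The siControl cells held the epithelial cadherins CDH3 and CDH1 together with FN1, VIM and TWIST1, which ranged from the percentile 87.3 to the percentile 97.9 of the FPKM of the tested genes, while SNAI1, ZEB1 and ZEB2 lay at the percentiles 20.4, 21.2 and 15.0.

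In siDAB2IP, VIM was at 13.0 ± 0.819 FPKM and TWIST1 at 12.3 ± 0.834 FPKM, and the libraries of these 2 genes overlapped, which they did not in siControl. SNAI1 moved to the last place, at 0.454 ± 0.0559 FPKM, below ZEB2 at 0.571 ± 0.0931 FPKM. FN1, at 69.2 ± 46.4 FPKM, overlapped both CDH3 (78.7 ± 1.82) and CDH1 (47.6 ± 8.77).

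The wider set of epithelial and mesenchymal genes was read from 8 lists of 133 genes, of which 102 passed the filter on low counts. Of these 102 genes, 14 rose (13.7%) and 10 fell (9.80%), beside 6.55% and 7.65% of all genes tested, and the median log2 fold change was 0.002. With the replicate block, 19 rose and 14 fell, beside 9.59% and 11.4% of all genes tested. The calls given below for each list are those without the block unless stated. Genes of the epithelial and of the mesenchymal lists were found on both sides.

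Of 19 other cadherin genes, 7 passed the filter, 2 rose and 0 fell (0 also at an unadjusted p under 0.05 and with DESeq2). CDH24 was measured at 20.7, 25.7 and 26.2 CPM in siControl and at 55.9, 63.7 and 97.0 CPM in siDAB2IP, and rose by 1.57 on the log2 scale (SE 0.196, edgeR adjusted p = 0.00160). CDH4, R-cadherin, rose from 26.1 ± 6.17 to 43.8 ± 3.82 CPM (edgeR adjusted p = 0.0150). CDH13, a cadherin anchored in the membrane by a lipid, was measured at 123 and 107.5 CPM and did not pass the test. Without siControl replicate 1 or siControl replicate 2, 1 of the list rose. Of 16 catenin and adherens junction genes, 13 passed the filter, 1 rose and 2 fell. CTNNB1, which encodes beta-catenin, the partner of the cadherin tail and a WNT effector, fell from 288 ± 15.2 to 207 ± 17.2 CPM (−0.47, SE 0.104, edgeR adjusted p = 0.0168). CTNNAL1, which encodes a catenin alpha-like protein, fell by 0.75 on the log2 scale (edgeR adjusted p = 0.0367), and NECTIN4, an adhesion molecule of adherens junctions, rose by 1.14 (edgeR adjusted p = 0.00421). In this list 0 fell without siControl replicate 2, and 1 fell without siControl replicate 1, siControl replicate 3 or siDAB2IP replicate 1.

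Of 16 other transcription factors of EMT, 13 passed the filter, 0 rose (0 also at an unadjusted p under 0.05 and with DESeq2) and 1 fell. The forkhead factor gene FOXQ1 fell from 18.0 ± 1.81 to 7.04 ± 1.94 CPM (−1.36, SE 0.201, edgeR adjusted p = 0.00339). The median of this list was −0.19, with 2 genes higher and 11 lower, beside 48.9% lower among all genes tested. Of its 13 tested genes, 12 did not pass the test, and over the 8 lists together 51 genes were higher and 51 lower. Of 17 regulators of the epithelial state, 14 passed the filter, 2 rose and 1 fell. EHF, an ETS factor of epithelial cells, fell from 73.5 ± 9.84 to 28.7 ± 0.409 CPM (−1.35, SE 0.117, edgeR adjusted p = 2.27e-04). GRHL3, a grainyhead factor, rose by 0.60 and FOXA1, the luminal pioneer factor, rose by 1.05 on the log2 scale (edgeR adjusted p of 0.0132 and 0.0274). FOXA1 was low in both groups, at 4.64 and 9.67 CPM. In this list 0 rose without siControl replicate 1, 1 rose without siControl replicate 2, siControl replicate 3 or siDAB2IP replicate 2, and 2 fell without siDAB2IP replicate 1. Of the EMT transcription factors, 2 fell without siDAB2IP replicate 3, with DESeq2, with no filter and with the replicate block. FOXC2 was measured at 37.8 CPM in siControl and 25.3 CPM in siDAB2IP and did not pass the main test (edgeR adjusted p = 0.0991). It passed with DESeq2 (adjusted p = 0.0435) and with the block (edgeR adjusted p = 0.0391).

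Of 21 epithelial surface and junction genes, 21 passed the filter, 3 rose and 2 fell. The tight junction genes CLDN4, CGN and CLDN1 rose by 1.39, 0.79 and 0.41 on the log2 scale, CLDN4 from 26.1 ± 5.34 to 68.5 ± 10.1 CPM (edgeR adjusted p of 0.00124, 0.0261 and 0.02755). DSP, which encodes the desmosome protein desmoplakin, fell from 1642 ± 258 to 886.8 ± 80.5 CPM (−0.89, SE 0.144, edgeR adjusted p = 0.00483), and the mucin gene MUC1 fell by 0.82 on the log2 scale (edgeR adjusted p = 0.00767). Of 20 genes associated with mesenchymal cells, 20 passed the filter, 4 rose and 3 fell. Among those that rose, the matrix protein gene SPARC rose by 0.89 and the lectin gene LGALS1 by 0.61 on the log2 scale (edgeR adjusted p of 0.02345 and 0.0231). NT5E, which encodes the surface enzyme CD73, rose by 0.97 (edgeR adjusted p = 0.04004), but its groups overlapped, the differences within replicate numbers were 1.61, 1.43 and −0.12 on the log2 scale, and with DESeq2 the adjusted p was 0.0740. The matrix protease genes MMP9 and MMP14 fell by 2.29 and 0.50 and CALD1, which encodes caldesmon, fell by 0.68 on the log2 scale (edgeR adjusted p from 0.0148 to 0.0179). MMP9 was low in siControl, at 1.31 CPM, and near the limit of detection in siDAB2IP, at 0.261 CPM. Leaving out siControl replicate 2 left no call in this list in either direction, and leaving out siControl replicate 1 left 1 gene called higher and 1 called lower. Without siDAB2IP replicate 1 or siDAB2IP replicate 2, 2 rose, and with limma on log2(FPKM + 1), 1 rose and 2 fell. Of the epithelial surface and junction genes, 1 rose without siControl replicate 2, siControl replicate 3 or siDAB2IP replicate 1, and 5 rose without siDAB2IP replicate 3.

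Of 10 genes of type III and IV intermediate filaments and the cytolinker plectin, 3 passed the filter, PLEC, NES and SYNM, and 0 rose or fell (0 also at an unadjusted p under 0.05 and with DESeq2). PLEC, which links intermediate filaments such as vimentin to other structures, was measured at 3374 and 3424 CPM (log2 difference 0.02, edgeR adjusted p = 0.951). VIM was the only type III filament gene above the filter, since DES, GFAP and PRPH stayed under it. Of 14 fibronectin receptor genes, 11 passed the filter, 2 rose and 1 fell. ITGA5, the alpha subunit of the main fibronectin receptor, was measured at 621, 616 and 635 CPM in siControl and at 1321, 1305 and 1332 CPM in siDAB2IP, and rose by 1.08 on the log2 scale (SE 0.105, edgeR adjusted p = 4.49e-04). Its partner ITGB1 was at 1505 and 1465 CPM (log2 difference −0.04, edgeR adjusted p = 0.895). The syndecan gene SDC3 rose by 0.43 on the log2 scale (edgeR adjusted p = 0.0353), and ITGB8 fell from 385 ± 15.7 to 188.5 ± 49.5 CPM (−1.03, SE 0.175, edgeR adjusted p = 0.00569). In this list 4 rose without siDAB2IP replicate 3 and 1 rose with any other single library left out, and 2 fell without siDAB2IP replicate 2.

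**Figure D4:**
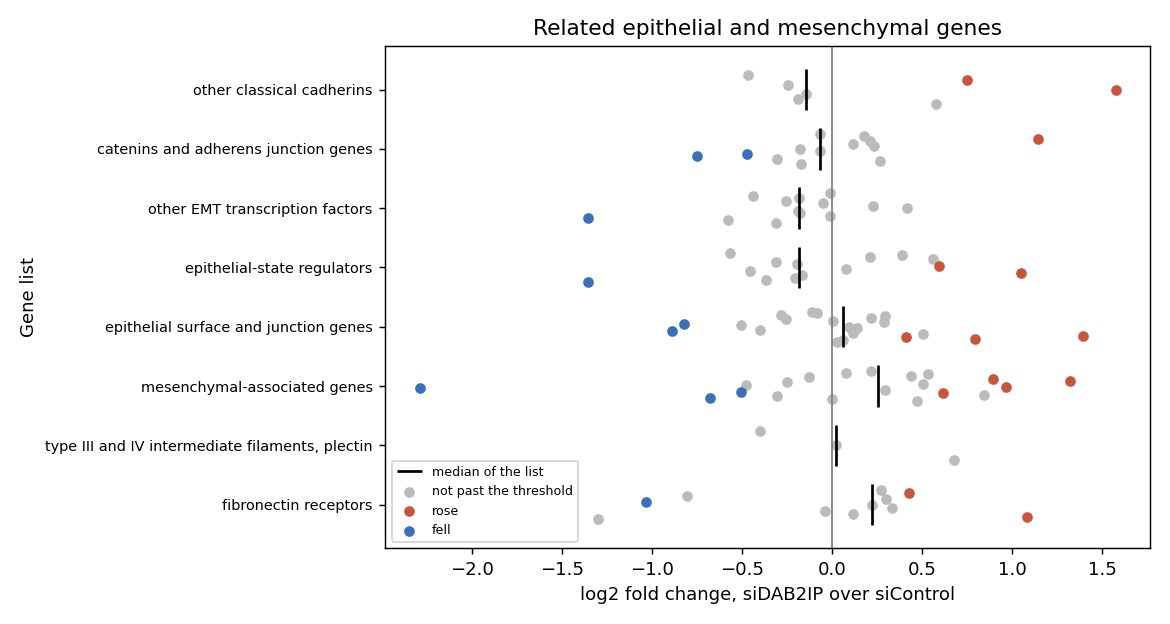
Log2 fold change, siDAB2IP over siControl (horizontal axis), of each tested gene in the 8 lists of related genes, with genes that rose in red, genes that fell in blue, the others in grey and the median of each list as a black bar. Called genes lie on both sides of 0 in 5 of the 8 lists, and the medians lie between −0.19 and 0.25.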

How the data were processed

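RNA-Seq was performed on 6 MCF10A libraries, 3 siControl and 3 siDAB2IP. The authors deposited read counts per gene, whole numbers without normalization, and FPKM values, which the authors scaled by gene length and library total. The submitters' processing notes name STAR 2.6.1d, featureCounts 1.5.0-p3 and the build hg38, and the strand used in counting is not given in the sources used here. Each library held 16353783 to 21916062 counts.

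Genes were tested with edgeR 4.0.16 (R 4.3.3), using TMM factors, the filterByExpr filter by group, glmQLFit and glmQLFTest, with Benjamini-Hochberg adjustment over 15430 genes and a threshold of 0.05 (biological coefficient of variation 14.8%). SEs were derived from the F statistic. Ratios of 2 genes were computed from CPM with 0.5 counts added, and tested with two-sided exact permutation tests. The alternatives were DESeq2 1.42.0, RLE factors, library size only, no filter, at least 10 counts in every library, the replicate number as a block, limma 3.58.1 on log2(FPKM + 1) and log2(FPKM + 0.1) where the mean FPKM was 1 or more, log2(FPKM + 1) for all genes with a count, and each library left out in turn. A fit without replicate 3 of both groups was chosen after seeing the data.

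The 10 genes, the lists of related genes and the marker lists were chosen with earlier results of these data known. Named genes were the 10 genes, DAB2IP, genes overlapping them and the markers. Of each list, up to 4 changed genes with the smallest p in each direction were named. POSTN, CDH13, FOXC2, TWIST2, PLEC, NES, SYNM, DES, GFAP, PRPH and ITGB1 were named besides. A few listed genes are not reported here. Libraries of the same number correlated at 0.265, 0.155 and 0.255 after subtraction of the group means, and those of different numbers at −0.278 to 0.021. Deviations from a group mean cancel out within the group for each gene, so these correlations depend on each other. The labels do not say what the number stands for. The scripts were tested on simulated counts for siDAB2IP against siControl with 15430 genes: edgeR recovered 74% of 100 genes changed by 1 on the log2 scale and 92% of 100 changed by 2, with 3 false calls. The simulated libraries were independent, with a spread that followed the trend over all genes. Differences tied to the replicate number and spread particular to a gene were not simulated, so these figures do not cover them.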

Additional observations from a re-analysis of the deposited data

How the results depend on the processing

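VIM, TWIST1 and DAB2IP kept their direction and their call in each of 16 alternatives, VIM between −1.02 and −0.92 (highest adjusted p 0.0157) and TWIST1 between −0.80 and −0.69 (highest adjusted p 0.0312). CDH3, SNAI1, SNAI2 and ZEB2 kept their direction, and SNAI1 passed the test with at least 10 counts in every library. With the replicate block, CDH2 turned to −0.003 (edgeR adjusted p = 0.992) and FN1 passed the test, so that 1 of the 10 genes rose, and no other call among the 10 genes changed. 1 of the 10 also rose with no filter and with no replicate 3 in either group, FN1 each time. With no filter, the counts of FN1 were those of the main fit. CDH2 was −0.015 with log2(FPKM + 0.1) and −0.24 with no replicate 3 in either group, where ZEB1 was −0.033. With each library left out in turn, CDH1 ranged from −0.012 to 0.237, CDH2 from −0.43 to 0.33, ZEB1 from −0.16 to 0.18, FN1 from −0.18 to 1.09 and the log2 CDH2:CDH1 ratio from −0.65 to 0.30.

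Over all genes, 659 rose and 758 fell with limma on log2(FPKM + 0.1), and 176 rose and 202 fell on log2(FPKM + 1) with all genes with a count. With each library left out, 264 to 1172 rose and 459 to 1352 fell, with the lowest of each without siControl replicate 2. With the replicate block, 6 mesenchymal-associated genes rose and 3 fell, and 5 epithelial surface and junction genes rose and 2 fell. Of the regulators of the epithelial state 3 rose and 3 fell with the block. Of the other EMT transcription factors 0 rose and 2 fell, and of the fibronectin receptors 2 rose and 2 fell. The remaining lists kept their counts. Of the related genes, 8 rose on both FPKM scales, and 3 rose and 2 fell with all genes with a count. With each library left out, 5 to 19 rose and 5 to 12 fell, with the lowest of each without siControl replicate 2. The cause of these changes was not tested. SNAI1 had 12 to 34 counts per library, and the part of depth in its test result was not tested.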
